A study of Mus musculus with 6 samples.

Results

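The Reg genes code for small secreted proteins with a C-type lectin fold, and their messenger RNAs were measured in isolated pancreatic islets, where the hormone-secreting cells lie. The members were taken by name from the count table: Reg1, Reg2, Reg3a, Reg3b, Reg3d, Reg3g and Reg4, and all 7 were found among its 24407 genes. Islets came from C57BL/6 mice aged 70 weeks on regular chow, either wild type (WT) or carrying the lmna LCS allele, with which the Lmna gene gives lamin C and no lamin A. Each genotype had 3 libraries, and islets of 3 mice went into each library, which makes a replicate a pool and not a single animal. The labels do not give the sex of the mice, and no treatment separated the groups.

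Reg proteins are named for their appearance in regenerating islets, and in the healthy pancreas they are products mainly of the exocrine acinar cells. Pancreatic injury and inflammation raise their transcripts, partly through interleukin 6 and interleukin 22 acting on the transcription factor STAT3. Reg3b and Reg3g are also antibacterial lectins of the gut, and Extl3, a glycosyltransferase of the exostosin family, has been proposed as a cell surface receptor for Reg proteins.

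Of the 7 members, 3 were called higher in LCS islets: Reg1 4.36-fold, Reg2 5.65-fold and Reg3b 7.03-fold. None was called lower. Of all genes tested, 2.06% were called higher and 0.144% lower. The 3 calls were all lost without LCS replicate 3, and also with an offset for transcript length. Levels of Reg3a, Reg3d and Reg3g were also above WT in every LCS library, which held for 14.6% of all genes tested. These transcripts were rare: Reg3d did not pass the test, and Reg3a and Reg3g fell below the count filter. Most acinar markers tested were also higher in LCS islets, and relative to the summed acinar list the Reg genes overlapped between the genotypes. With 3 libraries per genotype, a difference in these ratios could not have been called.

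The stretches before the start sites of the 6 clustered genes are shown because these genes lie side by side and include the 3 that were called higher in LCS. Along chromosome 6 the RefSeq order is Reg3b, Reg3d, Reg3a, Reg2, Reg1 and Reg3g, with no other protein-coding gene between them, while Reg4 lies on chromosome 3. The sequences are the 120 bases before each RefSeq start on GRCm38.p6, 5′ to 3′ along the gene, whereas the counts were made on mm9. Capitals mark TATAAA and CCTCCC.
Reg1 (chr6:78425863-78425982, plus strand): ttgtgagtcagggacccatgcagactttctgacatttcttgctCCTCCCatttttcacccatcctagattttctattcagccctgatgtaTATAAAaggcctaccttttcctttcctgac
Reg2 (chr6:78405035-78405154, plus strand): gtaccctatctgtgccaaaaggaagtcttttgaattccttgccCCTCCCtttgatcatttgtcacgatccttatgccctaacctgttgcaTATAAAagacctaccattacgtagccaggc
Reg3b (chr6:78370765-78370884, plus strand): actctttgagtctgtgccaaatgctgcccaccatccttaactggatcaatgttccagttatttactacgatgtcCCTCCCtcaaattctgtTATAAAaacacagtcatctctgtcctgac
Reg3g (chr6:78468875-78468994, minus strand): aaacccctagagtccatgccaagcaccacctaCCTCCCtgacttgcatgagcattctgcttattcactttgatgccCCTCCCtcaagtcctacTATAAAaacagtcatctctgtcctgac
Reg3d (chr6:78378866-78378985, minus strand): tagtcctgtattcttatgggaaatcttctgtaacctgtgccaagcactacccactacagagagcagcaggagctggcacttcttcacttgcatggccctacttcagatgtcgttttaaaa
Reg3a (chr6:78380589-78380708, plus strand): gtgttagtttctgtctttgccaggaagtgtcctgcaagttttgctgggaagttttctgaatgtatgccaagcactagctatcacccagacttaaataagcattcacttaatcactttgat

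TATAAA lay in the 250 bases before the start of Reg1, Reg2, Reg3b and Reg3g, with its first base 30, 30, 29 and 27 bases before it. Reg3g also had it on the other strand, 161 bases before the start. On either strand these letters were present in 12.4% of 32851 mouse promoter windows of that length. CCTCCC, present in 38.0% of the windows, lay upstream of the TATAAA nearest the start in the same 4 genes. Its first base lay 77 bases before the start in Reg1 and Reg2, 46 in Reg3b, and 88 and 44 in Reg3g. Reg4 had it once, on the other strand. The letters of a STAT site, TTCNNNGAA, were found in Reg3b (129 bases before the start) and Reg3d (238 bases), against 7.02% of all windows. CACCTG, an E-box, was found in Reg2, Reg3a, Reg3b, Reg3d and Reg4, against 17.2%. The motifs were searched on both strands, and TATAAA and CCTCCC were chosen after the sequences had been read.

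Levels of different members were compared as CPM, scaled by the trimmed mean of M-values (TMM), per kilobase of the longest GENCODE coding transcript. In LCS islets Reg1 stood at 31.2 ± 14.1 CPM per kilobase (SD, n = 3), Reg2 at 14.5 ± 7.30, Reg3b at 9.58 ± 6.20, Reg3g at 0.913 ± 0.552, Reg3d at 0.555 ± 0.265, Reg3a at 0.452 ± 0.0442 and Reg4 at 0.0521 ± 0.0741. In WT islets the order was the same, from 7.20 ± 2.97 for Reg1 and 2.58 ± 0.498 for Reg2 over 1.38 ± 0.968 for Reg3b and 0.195 ± 0.00763 for Reg3g to 0.128 ± 0.144 for Reg3d and 0.0798 ± 0.138 for Reg3a, with Reg4 at 0 counts. Reg1 lay above Reg2 in every library. With these lengths Reg2 also lay above Reg3b in every library, but their ranges overlapped in both genotypes. That order depends on the length taken. The longest coding transcript has 783 bases for Reg3b and 698 for Reg2, whereas the median has 476 and 696.5. Reg3g, Reg3d and Reg3a did not differ beyond their spread within a genotype.

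**Figure D1:**
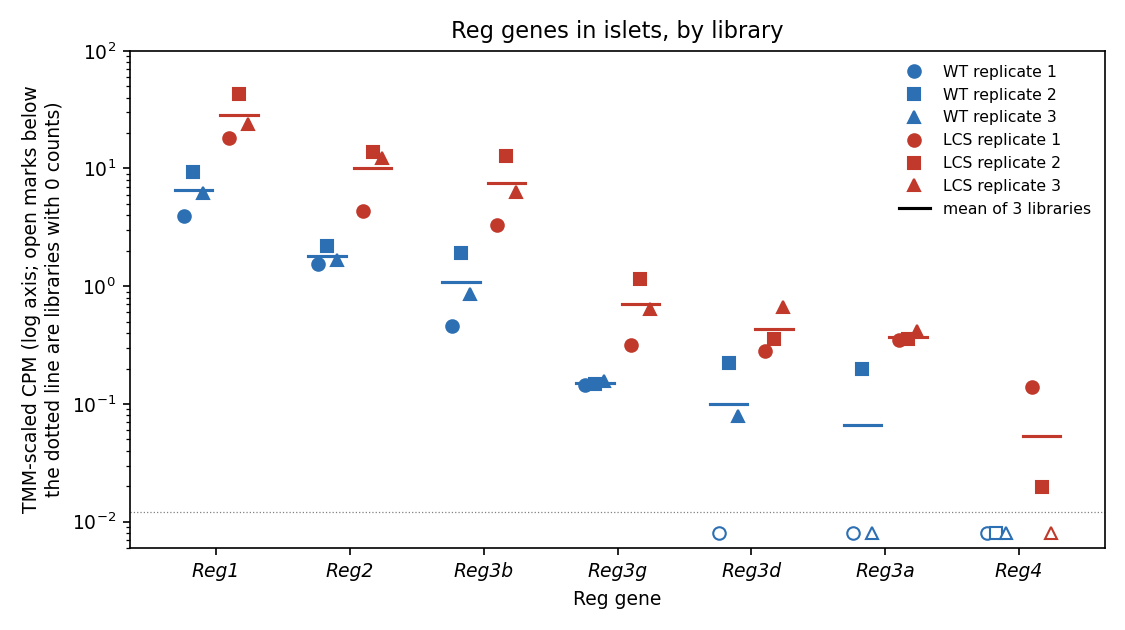
TMM-scaled CPM (log axis) of the 7 Reg genes by library (blue for WT, red for LCS), where a bar gives the mean of 3 libraries and open marks stand for 0 counts. For Reg1, Reg2, Reg3b, Reg3g, Reg3d and Reg3a every LCS library lies above every WT library, and the lowest Reg1 value in LCS (18.1 CPM) is above the highest in WT (9.33 CPM).

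Counts totalled 26123654 to 68036676 per library, and 3 rows dominated by ribosomal RNA held 52.3% to 54.1% of the LCS counts and 7.64% to 18.5% of the WT counts. TMM factors, which lay between 0.633 and 0.749 for the LCS libraries and between 1.395 and 1.498 for the WT libraries, enter all scaled values given here. Neither the ribosomal share nor the TMM factors overlapped between the genotypes. In this design, an effect of genotype on the Reg values cannot be told apart from one of library make-up. The islet markers Ins1, Ins2 and Gcg, with the other beta and alpha cell markers, were abundant in all libraries. The beta cell list summed to 175731 to 264042 CPM in LCS and 148305 to 172752 CPM in WT, without overlap. Of 12 markers of intestinal and gastric epithelium, another source of Reg transcripts, 5 (Fabp1, Cdx1, Alpi, Gkn1 and Gkn2) had no count in any library. Summed over all 12, this list still had 44.5 to 48.9 CPM in LCS and 52.6 to 60.0 CPM in WT, without overlap. In bulk islets, fewer cells of a type and less RNA per cell cannot be told apart.

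Whether LCS islets differ from WT islets was asked of each member in one edgeR quasi-likelihood fit over 14539 genes, of which 2.06% were called higher and 0.144% lower at a Benjamini-Hochberg adjusted p under 0.05. The filter on low counts kept Reg1, Reg2, Reg3b and Reg3d and removed Reg3a, Reg3g and Reg4. Against the 2.06% over all genes, 3 of the 7 members (3 of the 4 tested) were called higher and 0 lower, and by DESeq2 and limma-voom it was also 3 higher and 0 lower, against 7.1% and 4.38% of all genes by DESeq2 and 2.54% and 0.206% by limma-voom. As many, 3 higher and 0 lower, were counted with DESeq2 size factors (1.95% and 0.158% of all genes), with no filter on low counts (2.95% and 0.663%), with a filter of 1 CPM in 3 libraries (2.26% and 0.174%) and with the ribosomal rows left out (2.08% and 0.145%). All 4 tested members were higher at an unadjusted p under 0.05. The share of all genes at that threshold was not computed, here or for the lists below. Every LCS library exceeded every WT library for 6 of the 7 members, and for 14.6% of the genes tested. The members were chosen with earlier results of these data known, so these contrasts with all genes are descriptive.

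Reg1, the most abundant member and a major secretory product of acinar cells, had 18.1, 42.5 and 24.0 CPM in LCS replicates 1 to 3, whereas WT replicates 1 to 3 had 3.97, 9.33 and 6.22 CPM. The groups did not overlap, and replicate 2 was the highest library in both. These values rest on 519 to 2166 counts per LCS library and 191 to 378 per WT library. The log2 fold change was 2.12 (SE 0.36, 95% interval 1.31 to 2.94, edgeR adjusted p = 0.0199).

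Reg2, the closest relative of Reg1 in mouse, had 4.33, 13.8 and 12.2 CPM in LCS replicates 1 to 3, whereas WT replicates 1 to 3 had 1.54, 2.196 and 1.67 CPM. LCS replicate 1 was well below the other LCS libraries but still above all WT libraries. The log2 fold change was 2.50 (SE 0.40, 95% interval 1.61 to 3.38, edgeR adjusted p = 0.015).

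Reg3b, known as pancreatitis-associated protein, had 3.32, 12.8 and 6.35 CPM in LCS replicates 1 to 3, whereas WT replicates 1 to 3 had 0.457, 1.92 and 0.862 CPM. It varied most among the called members within each genotype, and the LCS and WT libraries still did not overlap. The log2 fold change was 2.81 (SE 0.57, 95% interval 1.53 to 4.09, edgeR adjusted p = 0.0382).

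The calls depended on which libraries were used. Without LCS replicate 3 none of the 3 was called (edgeR adjusted p = 0.0667 for Reg1, 0.0697 for Reg2 and 0.111 for Reg3b), although the log2 fold changes were 2.24, 2.36 and 2.93. Reg3b also lost its call without LCS replicate 1 (log2 fold change 3.18, adjusted p = 0.0522), LCS replicate 2 (2.203, 0.0684) or WT replicate 3 (2.68, 0.0856). Without WT replicate 2 the fold change of Reg3b was over 1.5 times larger, at 3.53 on the log2 scale (adjusted p = 0.021). With an offset for transcript length no member was called, at log2 fold changes of 1.78 for Reg1, 2.13 for Reg2 and 2.36 for Reg3b (adjusted p = 0.0743, 0.0566 and 0.0899). Under that offset 0.289% of 13840 genes were called higher and 0.0434% lower. Over all genes tested, the share called higher was 0.581%, 1.77% and 0.547% without LCS replicate 1, 2 or 3, and 12.5%, 0.748% and 0.931% without WT replicate 1, 2 or 3. The share called lower was 0.0203%, 0.284% and 0.00675% without LCS replicate 1, 2 or 3, and 7.68%, 0.0202% and 0.0405% without WT replicate 1, 2 or 3. Without WT replicates 1 and 2 together these shares were 5.77% and 2.16%.

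**Figure D2:**
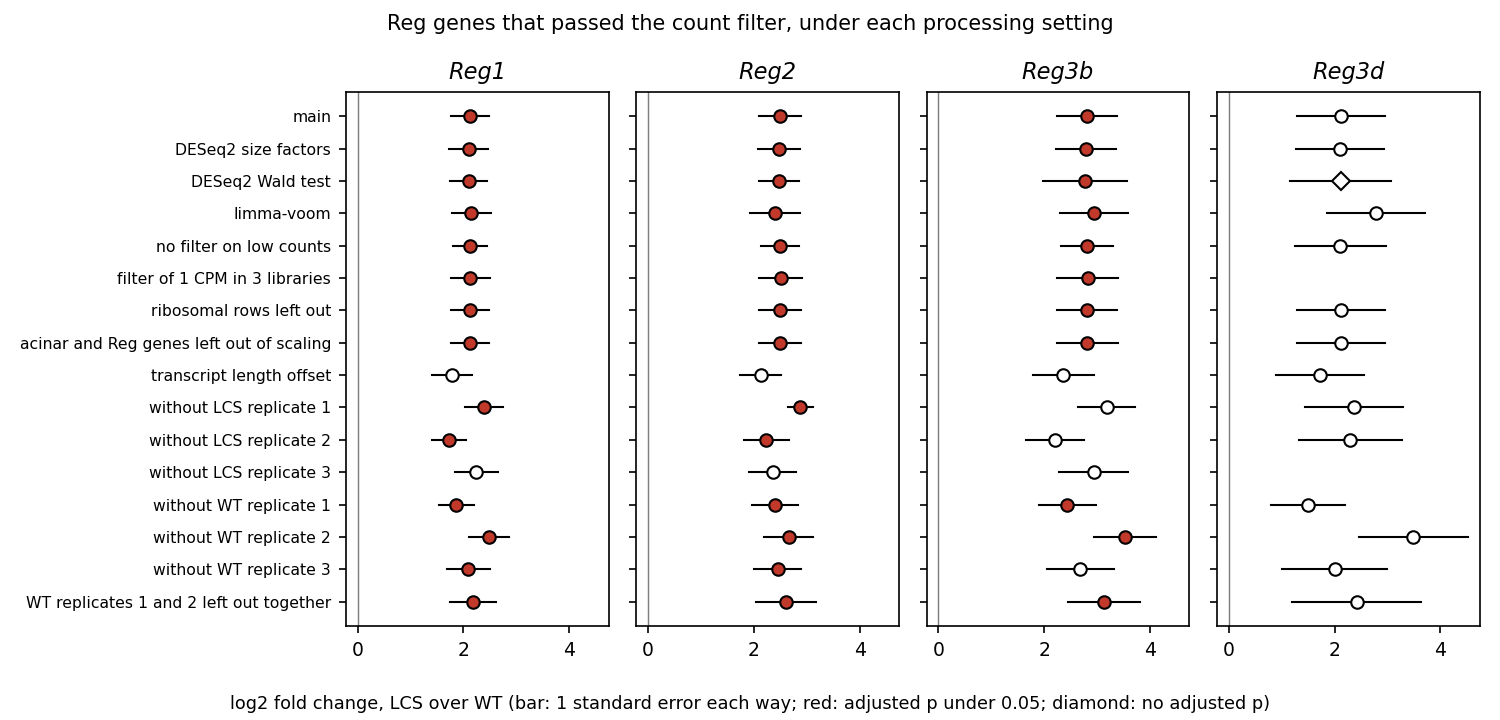
Log2 fold change (LCS over WT) of the 4 tested Reg genes under the main setting and up to 15 alternatives, with 1 standard error each way, red where the adjusted p was under 0.05. All points lie above 0, and those of Reg1 lie between 1.73 and 2.48.

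Reg3d, related to the islet neogenesis-associated protein, was near the limit of detection, with 8, 18 and 21 counts in LCS replicates 1 to 3 and 0, 9 and 3 counts in WT replicates 1 to 3. On the CPM scale this gave 0.280, 0.354 and 0.670 in LCS against 0, 0.222 and 0.0784 in WT. The values did not overlap, and the log2 fold change of 2.12 (SE 0.83, edgeR adjusted p = 0.165) did not pass the test. Its 95% interval ran from 0.26 to 3.98.

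Reg3g, an antibacterial lectin that binds peptidoglycan, fell under the count filter, with 9, 59 and 20 counts in LCS replicates 1 to 3 and 7, 6 and 6 in WT replicates 1 to 3. In CPM it was at 0.315, 1.16 and 0.638 in LCS and at 0.146, 0.148 and 0.157 in WT, without overlap and with LCS replicate 2 the highest. The ratio of mean CPM was 4.69. With no filter the edgeR log2 fold change was 2.23 (SE 0.60) and the adjusted p 0.0539. Without WT replicate 1 the log2 fold change was 2.23 with an adjusted p of 0.0408, but 12.5% of all genes were called higher in that setting. The edgeR adjusted p was 0.233 without WT replicate 2, 0.195 without WT replicate 3 and 0.0733 without LCS replicate 1.

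Reg3a had 10, 18 and 13 counts in LCS replicates 1 to 3, against 0, 8 and 0 in WT replicates 1 to 3. All LCS libraries lay between 0.350 and 0.415 CPM, and the WT library with counts lay at 0.197 CPM. A count of 0 in WT replicates 1 and 3 allows up to 0.0624 and 0.0784 CPM (3 counts), a limit that covers counting error only. With no filter its edgeR adjusted p was 0.178. Reg4, a member made mainly in the intestine, had 4, 1 and 0 counts in LCS and 0 in all 3 WT libraries, so no difference was detectable at this depth.

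The 6 members on chromosome 6 are similar but distinct in sequence. Aligned over GENCODE transcripts, Reg1 and Reg2 shared 78.9% of bases, Reg3a and Reg3b 75.5%, Reg3b and Reg3g 74.4%, and the other pairs 62.7% to 70.3%. No window of 50 bases in the longest coding transcript of any member occurred in a transcript of another member. For Reg1, 3.74% of the windows occurred in transcripts of 14 genes outside the family. Reads of at least that length without mismatches can therefore be told apart between members, but read length is not given in the sources used here.

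The make-up of the Reg counts was compared between the genotypes to ask whether members changed by different amounts. Reg1 held 60.5% ± 6.67 of the Reg counts in LCS and 66.9% ± 2.13 in WT (SD, n = 3), Reg2 21.1% ± 5.90 and 19.8% ± 4.86, and Reg3b 14.9% ± 2.89 and 10.3% ± 3.18. For each of these the genotypes overlapped. The log2 ratio of Reg1 to Reg3b counts was 2.03 ± 0.373 in LCS and 2.75 ± 0.430 in WT, a difference of -0.71 (exact two-sided permutation p = 0.2, adjusted p = 0.6 over 3 pairs). For Reg1 to Reg2 the difference was -0.23 and for Reg2 to Reg3b -0.48 (exact two-sided permutation p = 0.6 and 0.4, adjusted p = 0.6 for both). With 3 against 3 libraries such a test cannot go below 0.1, so unequal change of the members could not have been called.

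**Figure D3:**
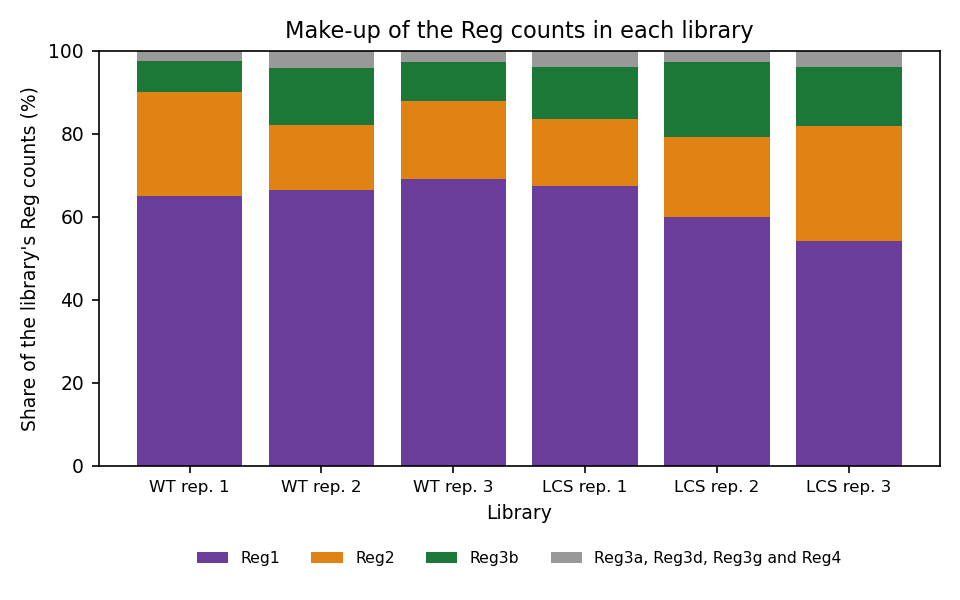
Share (%) of each library's Reg counts on Reg1, Reg2, Reg3b and the 4 rarer members together, for 3 WT and 3 LCS libraries. Reg1 holds 54.2% to 69.2% in every library, and the shares of the genotypes overlap.

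Acinar cells, the main source of Reg transcripts in healthy pancreas, lie around the islets, and many of their markers were also higher in LCS islets. Of 33 tested genes of the acinar list, which holds no Reg gene, edgeR called 24 higher and 0 lower, against 2.06% and 0.144% of all genes. This list, like the others, was chosen with earlier results of these data known, so the contrast is descriptive. The log2 fold change was above 0 for 29 of them and reached down to -0.44. Every LCS library lay above every WT library for 26 of the 33 genes and below for 1, against 14.6% and 12% of all genes tested. The list's median was 1.86 on the log2 scale, against 0.01 over all genes tested. The trypsinogen gene Try5 stood at 2.72 on the log2 scale (SE 0.24), the kallikrein gene Klk1 2.44 (SE 0.24), the elastase gene Cela1 2.05 (SE 0.20) and Prss2 2.203 (SE 0.24). The number of acinar genes called higher fell to 9 without LCS replicate 3, 12 without LCS replicate 2 and 10 with the length offset. Of all genes, 0.547%, 1.77% and 0.289% were called higher in these settings. Summed over the list, acinar transcripts reached 635.7 to 1100.4 CPM in LCS and 217.3 to 322.9 CPM in WT, and the amylase gene Amy2a5 was at 0 counts in all libraries.

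The summed Reg genes had 26.9, 71.1 and 44.4 CPM in LCS replicates 1 to 3, whereas WT replicates 1 to 3 had 6.11, 14.01 and 8.99 CPM. The acinar sum had the same order within LCS, at 635.7, 1100.4 and 1016.6 CPM. Within WT its order differed, at 310.5, 322.9 and 217.3 CPM in replicates 1 to 3. Per 100 acinar counts there were 4.23, 6.46 and 4.36 Reg counts in LCS replicates 1 to 3, and 1.97, 4.34 and 4.14 in WT replicates 1 to 3. LCS replicates 1 and 3 thus lay close to WT replicates 2 and 3, and the genotypes overlapped. The log2 ratio to the acinar sum was higher in LCS by 0.43 for Reg1, 0.67 for Reg2 and 1.15 for Reg3b (exact two-sided permutation p = 0.6, 0.2 and 0.2, adjusted p = 0.6, 0.3 and 0.3 over 3 genes). Here too the test cannot go below 0.1, so no difference in these ratios could have been called. For Reg3b the log2 ratio to the acinar sum ran from -7.58 to -6.42 in LCS and from -9.41 to -7.39 in WT. The part of acinar transcripts in the Reg difference was not tested beyond these ratios.

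**Figure D4:**
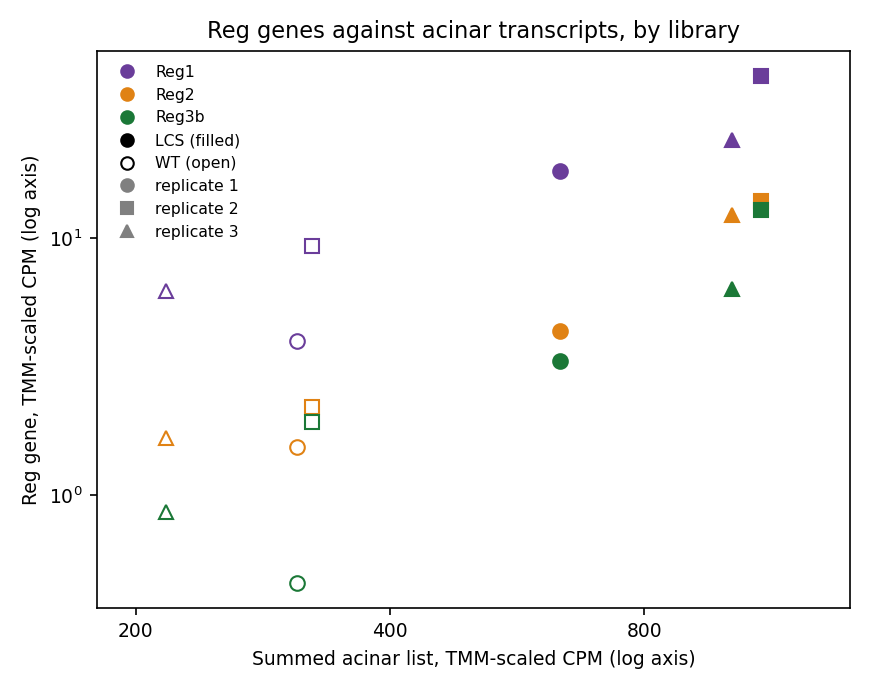
Reg1, Reg2 and Reg3b (TMM-scaled CPM, log axis) against the summed acinar list (TMM-scaled CPM, log axis) in each library, LCS filled and WT open. The LCS libraries (635.7 to 1100.4 acinar CPM) lie above and to the right of the WT libraries (217.3 to 322.9 acinar CPM).

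Genes of the proposed receptor and of the cytokine pathway upstream of Reg transcription did not pass the test. Of 24 tested genes of that list, edgeR called 0 in either direction, while 1 passed an unadjusted p of 0.05 upward and 2 downward, and the median log2 fold change was -0.11. Of the same list, DESeq2 called 0 higher and 2 lower, and limma-voom 0 in either direction. Extl3 had 27.9 ± 3.66 CPM in LCS and 27.0 ± 1.16 CPM in WT (SD, n = 3), a log2 fold change of 0.05 (SE 0.15). Il6st, the shared signalling chain of the interleukin 6 receptor family, was at -0.11 (SE 0.21), Stat3 at -0.11 (SE 0.16) and Socs3, a feedback inhibitor induced by STAT3, at 0.37 (SE 0.29). Il6 itself was at 0.73 (SE 0.29, edgeR adjusted p = 0.166) and its receptor gene Il6ra at -0.63 (SE 0.20, adjusted p = 0.117). Il17ra, with the smallest p of the list, was at -0.45 (SE 0.15, adjusted p = 0.116), and Pias3 at -0.37 (SE 0.17, adjusted p = 0.221). Interleukin 22 had 0 counts in LCS and 3 in WT. Without WT replicate 1 this list had 3 genes called higher and 2 lower, against 12.5% and 7.68% of all genes in that setting.

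Other STAT3 and acute phase targets likewise gave 0 calls among 19 tested genes by edgeR, while 4 passed an unadjusted p of 0.05 upward and 0 downward, and their median on the log2 scale was 0.42. DESeq2 called 1 of these higher and limma-voom 0. The largest were Serpina3g, a serine protease inhibitor, at 2.41 (SE 0.60, adjusted p = 0.0662) and the serum amyloid gene Saa3 at 1.44 (SE 0.39, adjusted p = 0.0839). With no filter on low counts edgeR called 2 genes of the list higher, against 2.95% of all genes. Without WT replicate 1 it called 6 higher, against 12.5% of all genes.

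Of 11 tested genes for other secreted antimicrobial proteins, edgeR called 3 higher and 0 lower, against 2.06% and 0.144% of all genes. These were the lysozyme genes Lyz1 (log2 fold change 2.004, SE 0.42) and Lyz2 (1.48, SE 0.23) and the zymogen granule lectin gene Zg16 (1.47, SE 0.32), which the acinar list also holds, with edgeR adjusted p of 0.0416, 0.0142 and 0.0482. Lyz2 is also a macrophage marker, and of 12 macrophage genes edgeR and limma-voom called 1 higher, Lyz2 by edgeR, and DESeq2 2. The macrophage genes' sum was 92.2 to 107.4 CPM in LCS and 62.4 to 77.4 CPM in WT. The number called in the antimicrobial list fell to 1 without LCS replicate 1, 2 or 3 or without WT replicate 2 or 3, and to 0 with the length offset. In the list of acinar injury genes, Nupr1, a stress-induced chromatin protein gene, rose by 0.85 on the log2 scale (SE 0.13, edgeR adjusted p = 0.0132), and Onecut2, a transcription factor gene, fell by 1.36 (SE 0.29, adjusted p = 0.0419) among 19 tested. The call of Nupr1 depended on single libraries, with 0 genes of that list higher without LCS replicate 1 or WT replicate 2. Without WT replicate 1, 8 genes of the list were called higher, against 12.5% of all genes. The call of Onecut2 also depended on single libraries, with 0 lower without any one of LCS replicates 1 to 3 or of WT replicates 2 and 3. With the length offset neither was called.

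Of 15 duct cell genes and of 9 lymphocyte genes edgeR called 0, while at an unadjusted p of 0.05 the duct list had 1 higher and 1 lower and the lymphocyte list 2 higher and 0 lower. DESeq2 called 1 duct gene lower and 1 lymphocyte gene higher, and limma-voom 0 in both lists. The lymphocyte genes summed to 31.4 to 69.2 CPM in LCS and 14.4 to 27.5 CPM in WT, and Jchain, the joining chain of secreted antibodies, was at 2.04 (SE 0.58, adjusted p = 0.0907). The duct cell sums overlapped, at 767.3 to 889.8 CPM in LCS and 566.0 to 930.8 CPM in WT. Among endocrine markers, the 3 genes of PP and epsilon cells were all above WT in every LCS library, against 14.6% of all genes tested. Their median was 1.82 on the log2 scale, and their sums were 3250 to 6032 CPM in LCS and 840.5 to 1491 CPM in WT. Of these, edgeR called 1 higher, limma-voom 2 and DESeq2 3, and all 3 passed an unadjusted p of 0.05 by edgeR. Ppy, the pancreatic polypeptide gene, rose by 1.86 on the log2 scale (SE 0.30, edgeR adjusted p = 0.0172). The delta cell genes summed to 1748 to 2286 CPM in LCS and 313.7 to 1319 CPM in WT, and each of the 3 tools called 1 of 5 higher, with 2 higher at an unadjusted p of 0.05 by edgeR. Of 10 alpha cell genes, 6 were above and 1 below WT in every LCS library, against 14.6% and 12% of all genes tested. By edgeR, 5 were higher and 1 lower at an unadjusted p of 0.05. Of the alpha cell genes, edgeR and limma-voom called 1 higher and DESeq2 2 higher and 1 lower, and their sums were 18980 to 24466 CPM in LCS and 15073 to 19153 CPM in WT, with overlap.

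Of 12 beta cell genes edgeR called 0. It called 0 of 9 endothelial genes, 0 of 10 genes of stellate cells and fibroblasts and 0 of the 3 tested intestinal and gastric genes. At an unadjusted p of 0.05, edgeR gave 1 higher and 2 lower beta cell genes, 1 higher endothelial gene, 2 higher stellate and fibroblast genes and 0 intestinal and gastric genes. DESeq2 called 1 beta cell gene higher and 1 lower and 0 genes of these other 3 lists, and limma-voom called 0 in all 4. The part of these cell types in the Reg difference was not tested.

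**Figure D5:**
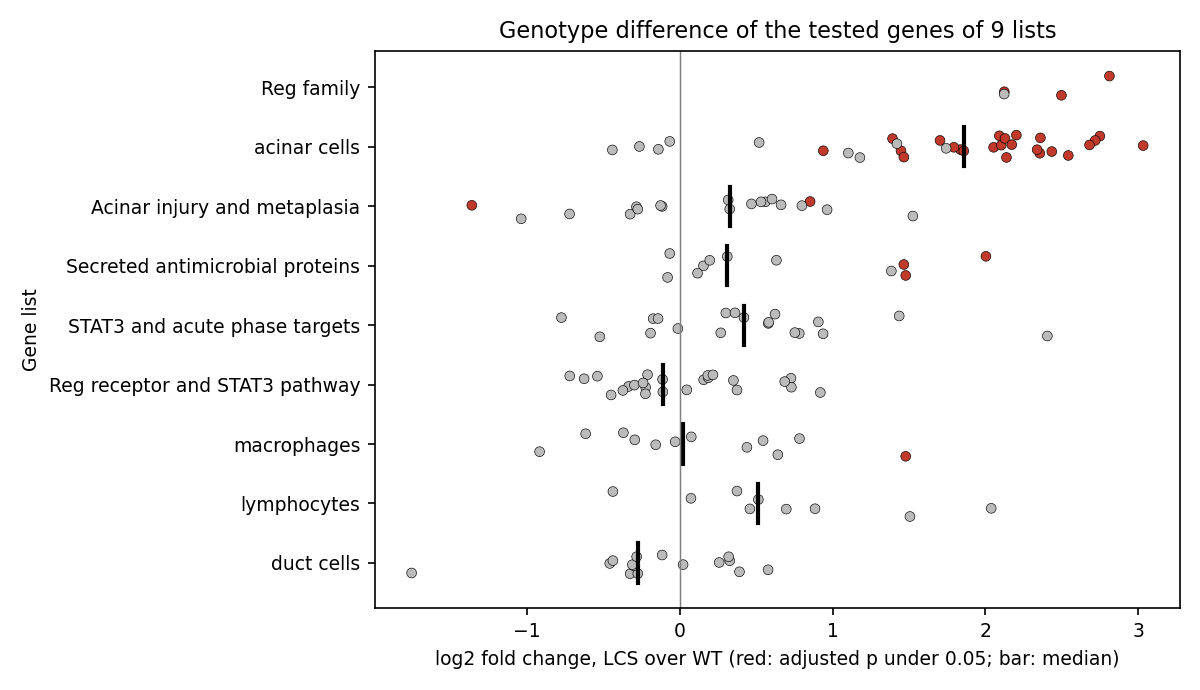
Log2 fold change (LCS over WT) of the tested genes of 9 lists, red where the edgeR adjusted p was under 0.05, with the median of each list other than the Reg family as a bar. The 4 tested Reg genes lie between 2.12 and 2.81, the acinar median is at 1.86, and the median of the receptor and STAT3 pathway list is at -0.11.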

How the data were processed

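Islet messenger RNA was counted in 3 LCS and 3 WT libraries. The authors deposited 1 table of whole-number counts per gene, not normalised, named by symbol and NCBI gene number. Per the submitters' processing notes, HTSeq 0.9.0, TopHat2 2.1.1, Bowtie2 2.2.9, FastQC, bcl2fastq 2.20 and the build mm9 were used. Neither annotation nor strand setting is given in the sources used, and overlapping or antisense genes may share reads. Replicates were numbered in accession order and differed beyond sampling noise (chi-square per degree of freedom 22.5 to 155.02).

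The main test was edgeR 4.0.16 in R 4.3.3 (filterByExpr defaults, TMM, quasi-likelihood, genotype as the only term, all 6 libraries). P-values were adjusted over the 14539 genes tested. Standard errors are the log2 fold change divided by the square root of F. The steps were tested on simulated data. DESeq2 1.42.0, limma-voom (limma 3.58.1), other size factors and filters, scaling without ribosomal, acinar or Reg genes, a loess offset for transcript length (GENCODE M21), and leaving out libraries were alternatives. Ratios within a library were compared by exact permutation.

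The members and 16 other gene lists were chosen with earlier results of these data known. Beyond the members, named genes are Extl3, Il6st, Stat3, Socs3, the up to 4 smallest p-values of a list, the genes most like the summed Reg level, and neighbours of the Reg genes. Genes named outside this rule are those at 0 counts, interleukin 22 and the tissue markers. All 7 members matched the RefSeq promoter table.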

Additional observations from a re-analysis of the deposited data

How the results depend on the processing

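All 15 alternatives kept the direction of Reg1, Reg2 and Reg3b, and so did the 13 that gave a value for Reg3d. Reg3d was not tested with the filter of 1 CPM in 3 libraries or without LCS replicate 3. The genotypes did not overlap for any of these genes, so leaving out libraries could hardly have reversed a direction. With the transcript length offset the log2 fold changes were 1.78, 2.13 and 2.36 for Reg1, Reg2 and Reg3b, none of them called, so the number of members called higher went from 3 to 0. Leaving out each library in turn gave 1.73 to 2.48 for Reg1, 2.24 to 2.88 for Reg2 and 2.203 to 3.53 for Reg3b, and 1.49 to 3.49 for Reg3d over the 5 libraries whose removal kept it in the test. It gave 0 to 4 members called higher and 0 called lower. The 0 higher came without LCS replicate 3, and the 4, with Reg3g, without WT replicate 1, where 12.5% of all genes were called higher. The calls of Reg1 and Reg2 were lost in 2 of 15 alternatives each and that of Reg3b in 5 of 15. With WT replicates 1 and 2 left out together, the single WT library is assumed to vary like the LCS libraries. The difference in the log2 ratio of Reg1 to Reg2 ran from -0.49 to 0.0593 over the libraries left out, and turned to 0.0593 without LCS replicate 3. Ratios with Reg3d needed 0.5 counts added, since WT replicate 1 had none. No paired analysis was possible because the labels give no replicate numbers that the groups share. The cause of the losses was not tested. With 3 pools per genotype and members at under 1 CPM, differences of Reg3a, Reg3d, Reg3g and Reg4 are limited by depth.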

Other observations

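Across the 6 libraries, the 8 genes whose log2 CPM lay closest to that of the summed Reg genes, among 9686 genes with a mean of at least 5 CPM, included the acinar genes Cpb1 (Pearson r = 0.989), a carboxypeptidase gene, and Prss2 (0.977), a trypsinogen gene. The others were Tma7 (0.995), Sub1 (0.987), Fam96a (0.982), Gabarapl2 (0.982), 1810037I17Rik (0.981) and Deb1 (0.977). Tma7 had 127.4 ± 12.2 CPM in LCS islets against 86.0 ± 6.99 in WT islets (SD, n = 3, log2 fold change 0.57, SE 0.14, edgeR adjusted p = 0.0673). For deviations from the genotype means the closest were Nup37 (0.998), Idh3a (0.991), Mmadhc (0.991), Tma7 (0.99), Gbp4 (0.988), Sertad2 (0.986), Rbm20 (0.985) and Mettl3 (0.984), none of them an acinar list gene. These are descriptions of 6 points that share library and scaling, with no test.

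Next to the Reg cluster on chromosome 6, the protein-coding neighbour Lrrtm1 had 1 to 18 counts per library, and Ctnna2 beyond it had a log2 fold change of -0.31 (SE 0.26, edgeR adjusted p = 0.485). On the other side the predicted gene Gm20594 had a mean of 1450 CPM in LCS islets against 129.8 in WT islets (log2 fold change 3.48, SE 0.24, edgeR adjusted p = 9.1e-05), and Lrrtm4 beyond it was at -0.03 (SE 0.32, adjusted p = 0.964). RefSeq also lists Gm20594 as Mtrnr2l, a name given to nuclear copies of mitochondrial ribosomal RNA sequence. Its reads may therefore come from elsewhere, the mitochondrial ribosomal RNA included, and its value is uncertain. The source of its reads was not tested. Beside Reg4 on chromosome 3, Adam30 had 0 to 2 counts per library, while Notch2 (-0.11, SE 0.27) and Phgdh (0.17, SE 0.15) did not pass the edgeR test (adjusted p = 0.831 and 0.499).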
